A study of Mus musculus with 4 samples.

Results

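H19 had the most counts of any gene in the myotube cultures, and together with 9 other imprinted genes it formed the group described here. The 10 genes were H19, Igf2, Cdkn1c, Meg3, Rian, Mirg, Dlk1, Peg3, Grb10 and Mest. They were taken by name from a fixed list, and all 10 were found among the 53647 genes counted and among the 15173 genes with enough counts to be tested. In the 2 control libraries they took 2.94% and 2.93% of all counts on genes, and in the 2 libraries of myotubes treated with EDA-A2 they took 2.58% and 2.46%. Of the 10 genes, 4 fell with EDA-A2 (Mest, Grb10, Igf2 and Peg3) and 0 rose in edgeR, beside 2.13% and 2.45% of all genes tested. These edgeR calls, like those of every other gene, needed both control libraries. H19 itself was 0.826 times its control level with an adjusted p just above the threshold of 0.05.

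The study asked what the ligand EDA-A2, which acts through the receptor EDA2R, does to muscle cells in the setting of cancer cachexia, the wasting that accompanies tumours. Wild-type mouse myoblasts, isolated from limb muscle of pups aged 2 to 3 days, were grown with 20% fetal bovine serum and bFGF, a growth factor, at 2.5 ng/ml. They were turned into myotubes in 5% horse serum for 48 h. Recombinant EDA-A2 was then added at 250 ng/ml for 24 h in one condition and the control condition was labelled only as Control, with the harvest at 72 h of differentiation in both. Both conditions were of the same genotype (WT) and differed by label in the treatment alone. Each condition held 2 libraries of polyadenylated RNA, and the labels do not say whether these came from separate cultures, so p-values measure only the spread between these libraries. Counts on genes came to 29444155 to 29746863 per library, and intervals on shares cover counting error only.

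An imprinted gene is transcribed mainly from the copy inherited from a given parent, under the control of methylated regions that serve a whole cluster of neighbours. Many imprinted genes act on growth, the paternally expressed ones often as drivers of it (Igf2, Dlk1, Peg3, Mest) and the maternally expressed ones often as brakes (H19, Cdkn1c, Grb10). They are known to be expressed together in fetal and newborn tissue, muscle included, and to decline together after birth, and this group is often called the imprinted gene network. The counts carry no allele information, so imprinting itself was not measured. In cultures like these, fewer cells of a type and less RNA per cell cannot be told apart.

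Positions are those of the GENCODE annotation on GRCm39. H19 (ENSMUSG00000000031, a long noncoding RNA, chr7:142129262-142133957, minus strand), Igf2 (ENSMUSG00000048583, chr7:142204503-142220694, minus strand) and Cdkn1c (ENSMUSG00000037664, chr7:143012069-143014806, minus strand) lie on distal chromosome 7. Peg3 (ENSMUSG00000002265, chr7:6706882-6733468, minus strand) lies on the proximal part of the same chromosome, Grb10 (ENSMUSG00000020176, chr11:11880498-11988683, minus strand) on chromosome 11 and Mest (ENSMUSG00000051855, chr6:30723546-30752058, plus strand) on chromosome 6. Dlk1 (ENSMUSG00000040856, chr12:109418749-109429262), Meg3 (ENSMUSG00000021268, chr12:109506877-109538165), Rian (ENSMUSG00000097451, chr12:109570242-109628150) and Mirg (ENSMUSG00000097391, chr12:109696198-109715898) follow one another on the plus strand of chromosome 12.

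Several of the 10 genes host small RNAs. H19 carries miR-675 in an exon, Igf2 carries miR-483, and Mest carries miR-335, and their mature forms are shown because the functions of these 3 host genes are often discussed through their miRNAs. The sequences are those of RefSeq (GRCm38.p6), written 5′ to 3′ with the seed, bases 2 to 8, in capitals.
mmu-miR-675-5p: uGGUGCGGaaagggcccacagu
mmu-miR-675-3p: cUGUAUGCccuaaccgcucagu
mmu-miR-483-5p: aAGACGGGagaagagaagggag
mmu-miR-483-3p: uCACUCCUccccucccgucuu
mmu-miR-335-5p: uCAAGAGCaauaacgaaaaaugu
mmu-miR-335-3p: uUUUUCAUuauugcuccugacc
No pair of these 6 shares a seed, and no other of the 1679 mature mouse miRNA names in the RefSeq table has any of the 6 seeds. The count tables held 22 miRNA genes inside the 10 genes, with 41 mature sequences in RefSeq, and a shared seed occurred only once among them, between miR-453 and miR-496a-5p of Mirg. Of the 22 miRNA genes, 2 had any count (Mir483 with 5, 5, 4 and 1 counts in control replicates 1 and 2 and EDA-A2 replicates 1 and 2, and Mir335 with 2 counts in control replicate 1 alone), and Mir675 had 0 in every library. Of the 8 small nucleolar RNA genes inside Rian, 1 had a single count. Libraries of polyadenylated RNA are not made to hold mature miRNAs, so these counts say nothing on miR-675 itself. Mir675 also lies within an exon of H19, and read pairs that match both genes were left out as ambiguous. Its count of 0 could therefore arise from the counting alone.

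Promoter windows, 250 bases before to 50 bases after a start site in RefSeq (GRCm38.p6), were given for 8 of the 10 genes (15 windows), and not for H19 and Cdkn1c. The Peg3 window is shown because its start site lies 164 bases from that of Usp29, a gene transcribed the other way, and their windows share 263 of 300 bases. The first Meg3 window is shown because it is the other member window with the palindrome TGACGTCA, a cAMP response element, which the Peg3 window also holds. The upstream Mest window is the only member window with CAGCTG, an E-box bound by MyoD and myogenin. Capitals mark matches on either strand to CANNTG (the general E-box, which includes CAGCTG), GGAANNTCC (a part of NFκB sites), TGACGTCA and a core of the CTCF site.
Peg3 promoter, chr7:6730370-6730669, minus strand: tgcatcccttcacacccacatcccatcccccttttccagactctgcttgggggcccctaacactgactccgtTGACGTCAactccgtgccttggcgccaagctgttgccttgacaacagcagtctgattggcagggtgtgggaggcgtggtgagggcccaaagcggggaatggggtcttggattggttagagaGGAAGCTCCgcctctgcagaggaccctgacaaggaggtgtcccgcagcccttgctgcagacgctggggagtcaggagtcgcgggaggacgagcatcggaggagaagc
Meg3 promoter, chr12:109540746-109541045, plus strand: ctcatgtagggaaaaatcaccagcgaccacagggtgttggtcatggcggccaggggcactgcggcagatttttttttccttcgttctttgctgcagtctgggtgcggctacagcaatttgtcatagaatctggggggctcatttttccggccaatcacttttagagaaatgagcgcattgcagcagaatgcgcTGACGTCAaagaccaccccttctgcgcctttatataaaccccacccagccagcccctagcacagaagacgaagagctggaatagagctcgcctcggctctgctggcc
Mest promoter, chr6:30733256-30733555, plus strand: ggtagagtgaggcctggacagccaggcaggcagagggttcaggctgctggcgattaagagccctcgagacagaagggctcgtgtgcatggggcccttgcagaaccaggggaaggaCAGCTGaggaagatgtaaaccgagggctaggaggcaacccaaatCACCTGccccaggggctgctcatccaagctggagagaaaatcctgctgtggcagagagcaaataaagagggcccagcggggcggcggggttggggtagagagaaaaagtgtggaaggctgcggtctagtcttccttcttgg
Counted from the start site, TGACGTCA begins at position -178 of Peg3 and -57 of Meg3, and GGAANNTCC begins at position -57 of Peg3. CANNTG occurred in 9 of the 15 member windows and in 72.3% of all 32851 windows in the table. The Mest windows with start sites at 30738050 and 30738053 hold the same CACATG, so the 15 are not all separate. CAGCTG occurred in 1 of 15 and in 16.3% of all, GGAANNTCC in 1 of 15 and in 4.26% of all, and TGACGTCA, searched for after the windows had been read, in 2 of 15 and in 1.79% of all. The CTCF core occurred in 0 of 15 and in 0.037% of all. A match is a match of letters and shows no binding.

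H19 stood far above the rest in every library. Levels of different genes are compared per length, as FPKM, the counts divided by exon length in kilobases and by library size. The level of H19 was 9797 and 9740 FPKM in the control libraries and 8582 and 8195 FPKM in the EDA-A2 libraries. Peg3 came next, with 96.6 and 95.9 FPKM in control and 84.9 and 79.1 FPKM with EDA-A2. Igf2, Cdkn1c and Mest followed between 5.77 and 13.5 FPKM, Grb10 and Dlk1 between 1.14 and 2.12 FPKM, Rian and Meg3 between 0.164 and 0.365 FPKM, and Mirg between 0.035 and 0.0492 FPKM. The levels of H19 and Peg3 did not overlap with those of any other member, whereas Grb10 overlapped with Dlk1. Igf2 overlapped with Cdkn1c only over its full exon length, since over the exon bases it shares with no other gene on its strand its mean was 28.9 FPKM.

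**Figure D1:**
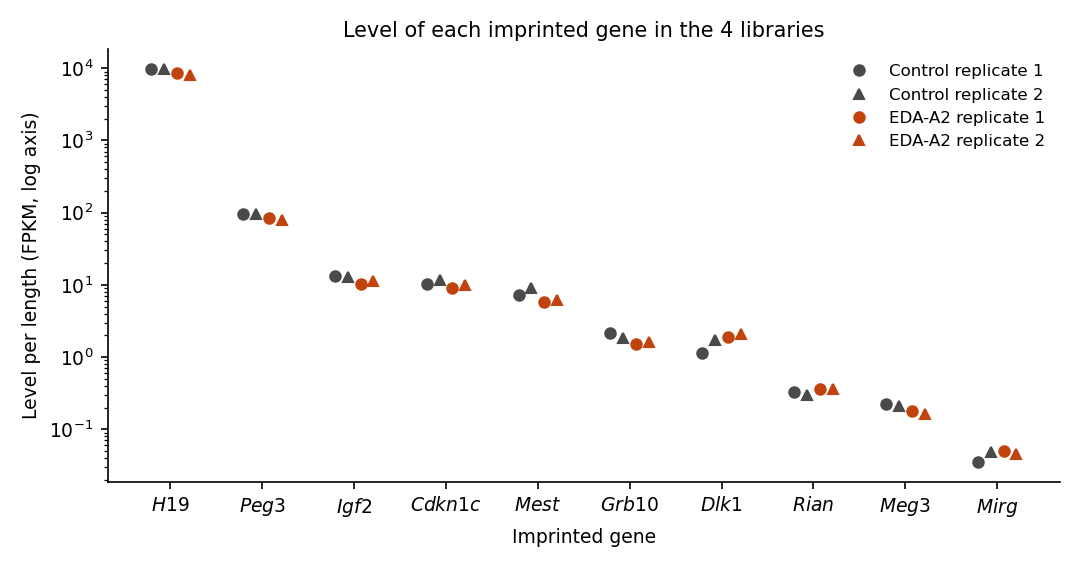
Level per length (FPKM, log axis) of each of the 10 imprinted genes, ordered by mean level, with 1 point per library (grey for Control, orange for EDA-A2, circles for replicate 1, triangles for replicate 2). H19 lies between 8195 and 9797 FPKM, and the next gene, Peg3, between 79.1 and 96.6 FPKM.

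By count, H19 ranked first of all genes and Peg3 ranked 70th. H19 made up 94.8% of the counts of the 10 genes in each control library and 94.8% and 94.9% in the EDA-A2 libraries, and H19 with Peg3 made up 99.2% to 99.3%. Statements on the summed share are therefore almost entirely statements on H19. Its own share of all counts was 2.79% (95% Wilson interval 2.78 to 2.80) and 2.77% (2.77 to 2.78) in control replicates 1 and 2, and 2.44% (2.44 to 2.45) and 2.33% (2.33 to 2.34) in EDA-A2 replicates 1 and 2. The group means were 2.78% ± 0.0114 and 2.39% ± 0.0778 (SD, n = 2 libraries each), and the gap between them exceeded the gap between replicates in either condition. With 2 libraries against 2, an exact permutation test cannot go below p = 0.333, so shares carry no test here. The other 9 genes together took 0.153% ± 0.000423 of counts in control and 0.130% ± 0.00467 with EDA-A2 (SD, n = 2 each), again with no overlap.

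Differential expression was tested with the quasi-likelihood test of edgeR, p-values being adjusted over all 15173 genes by the Benjamini-Hochberg method, and a gene is said to have fallen or risen when its adjusted p was under 0.05. Among all genes tested, 2.13% fell and 2.45% rose. Of all 15173 genes, 2372 had an unadjusted p under 0.05 in edgeR and 1570 in DESeq2. Among the 10 imprinted genes, 4 fell and 0 rose, with 1 of the 7 unadjusted p-values under 0.05 on the higher side. DESeq2's Wald test, by which 1.79% of all genes fell, also gave 4 lower and 0 higher, with H19 in place of Grb10. The median log2 fold change of the 10 genes was -0.28, and that of all genes tested was -0.00. Both EDA-A2 libraries lay below both control libraries for 7 of the 10 genes, as they did for 22.2% of all genes tested, and above both for 2 of the 10, against 22.8% of all genes. In edgeR, 3 of the 4 paternally expressed genes and 1 of the 6 maternally expressed genes were called. Depth differed among the genes without a call. The maternally expressed Meg3, Rian and Mirg had 10 to 347 raw counts per library, and the paternally expressed Dlk1 had 204 to 373. No test was made on this split.

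**Figure D2:**
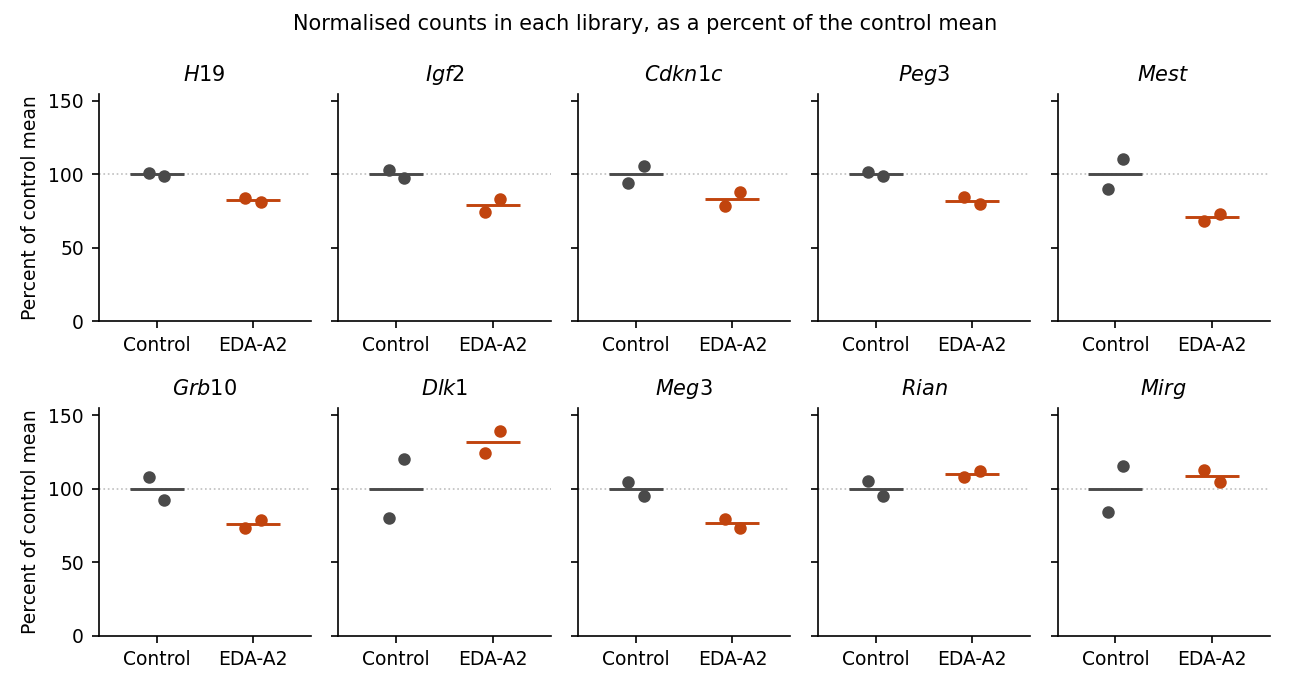
Normalised counts of each gene in each library as a percent of the control mean, with 1 point per library and a bar at the mean of each condition (n = 2). The EDA-A2 points lie below both control points for H19, Igf2, Cdkn1c, Peg3, Mest, Grb10 and Meg3, above both for Dlk1 and Rian, and between them for Mirg.

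On distal chromosome 7, H19 and Igf2 share enhancers and a control region at which the insulator protein CTCF binds on the maternal copy. H19 had 850042 and 829036 normalised counts in control and 705380 and 682348 with EDA-A2. Both treated libraries were below both controls, and replicates of a condition differed by only 0.04 and 0.05 on the log2 scale. The log2 fold change was -0.27 with an SE of 0.08 (95% interval -0.44 to -0.11), and the adjusted p of 0.0529 in edgeR missed the threshold while that of 0.00264 in DESeq2 passed it. Igf2, which encodes a fetal growth factor that drives myoblast differentiation, had 2526 and 2394 normalised counts in control and 1827 and 2054 with EDA-A2. It fell by 0.34 on the log2 scale (SE 0.08, adjusted p 0.0178 in edgeR). Cdkn1c, which encodes the cell cycle inhibitor p57, had 674 and 755 normalised counts in control and 563 and 629 with EDA-A2. The conditions did not overlap, but the log2 fold change of -0.26 (SE 0.10, 95% interval -0.48 to -0.05) did not pass the test (adjusted p 0.187 in edgeR).

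The counts of these 3 genes depend unequally on their overlaps. Of the 6162 exon bases of Igf2, 3599 (58.4%) are also exon of Gm49394, a gene on the same strand that spans Igf2 and in which 5, 6, 4 and 15 counts were placed. Read pairs that match more than 1 gene were left out as ambiguous by the counting, and these made up 0.946% to 0.986% of all pairs in the libraries, so the level of Igf2 may be a lower limit: with the unshared bases alone as its length, its mean over the 4 libraries was 28.9 FPKM instead of 12.03 FPKM. The antisense genes Igf2os and Gm33148 share 254 and 347 exon bases with Igf2, had 40 to 58 and 37 to 57 counts, and gave log2 fold changes of -0.23 and 0.11 (adjusted p 0.780 and 0.918 in edgeR). Cdkn1c shares 625 of 2155 exon bases with the antisense gene Gm44732, which had 0 to 6 counts. H19 shares 84 of its 2848 exon bases, those of Mir675, with another counted gene.

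The remaining 3 genes with a call, Peg3, Mest and Grb10, are growth regulators that lie outside distal chromosome 7. Peg3, a zinc finger protein linked to muscle stem cells and to the stress and apoptosis pathways of muscle, had 40189 and 39164 normalised counts in control and 33483 and 31584 with EDA-A2. It fell by 0.29 on the log2 scale (SE 0.07, adjusted p 0.0278 in edgeR), or to 0.820 times its control level. Mest, which encodes an enzyme of the endoplasmic reticulum expressed in mesoderm, had 1768 and 2167 normalised counts in control and 1345 and 1438 with EDA-A2. It fell by 0.50 on the log2 scale (SE 0.09, adjusted p 0.00466 in edgeR). The control replicates differed by 0.29, and the log2 fold change was -0.34 without control replicate 2. Grb10, an adaptor that dampens signalling by the insulin and IGF receptors, had 662 and 568 normalised counts in control and 450 and 485 with EDA-A2. It fell by 0.39 (SE 0.11), and its adjusted p of 0.0490 in edgeR lay just inside the threshold, while DESeq2 gave 0.111. In Mest, 3850 of 8070 exon bases lie opposite exons of Copg2. Copg2 had 2821 to 3077 counts and a log2 fold change of -0.01 (adjusted p 0.976 in edgeR). The strand option of the counting is not given in the sources used here.

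The chromosome 12 cluster was weakly expressed and gave no call. Dlk1, which encodes a membrane protein related to Notch ligands that is known to affect muscle mass, had 210 and 316 normalised counts in control and 326 and 367 with EDA-A2. Its log2 fold change was 0.40 (SE 0.16, 95% interval 0.05 to 0.74, adjusted p 0.230 in edgeR), and it was 0.14 without control replicate 1 and 0.72 without control replicate 2. Meg3, a maternally expressed long noncoding RNA, had 132 and 120 normalised counts in control and 99.98 and 92.4 with EDA-A2, a log2 fold change of -0.39 (SE 0.18, 95% interval -0.78 to 0.00, adjusted p 0.326 in edgeR). Rian, the host of a cluster of small nucleolar RNAs downstream of Meg3, had 320 and 289 normalised counts in control and 328 and 341 with EDA-A2. Its log2 fold change was 0.13 (SE 0.12, 95% interval -0.12 to 0.39, adjusted p 0.683 in edgeR), and it was 0.21 without control replicate 1 and 0.064 without control replicate 2. Mirg, the host of a miRNA cluster, had 10 to 14 raw counts per library and no measurable direction: the fold change of 0.11 had an interval of -0.84 to 1.07 and turned to -0.089 without control replicate 1. Rtl1, a paternally expressed gene on the opposite strand, overlaps the span of Rian in part. It had 115 and 129 raw counts in control and 170 and 156 with EDA-A2 (log2 fold change 0.36, adjusted p 0.306 in edgeR).

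**Figure D3:**
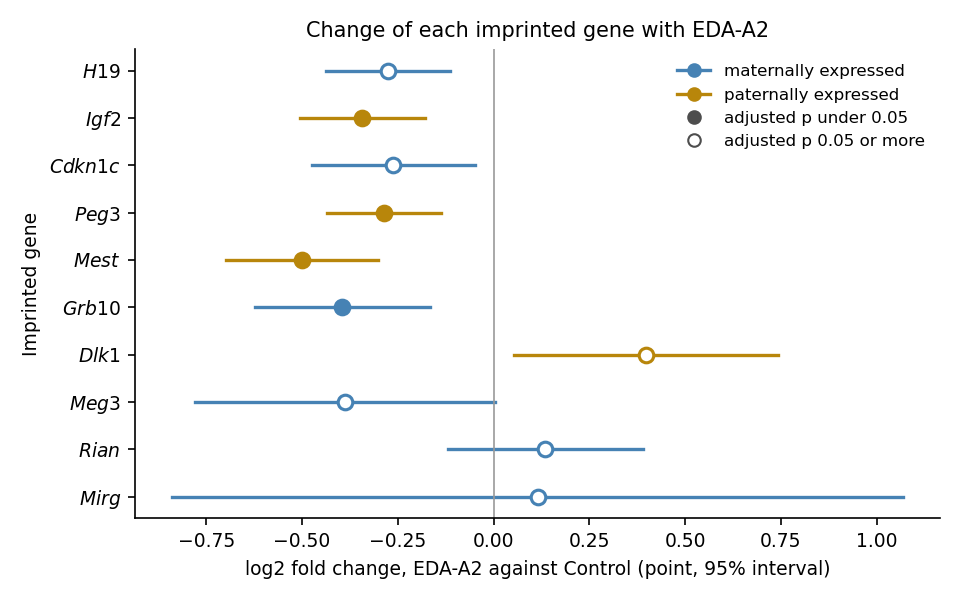
The log2 fold change of EDA-A2 against Control for each gene with its 95% interval, in blue for maternally and ochre for paternally expressed genes, filled where the adjusted p was under 0.05. Igf2, Peg3, Mest and Grb10 are filled and lie between -0.50 and -0.29, and the interval of Mirg runs from -0.84 to 1.07.

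Ratios of counts within a library do not depend on the scaling between libraries. The ratio of H19 to Peg3 was 21.2 and 21.2 in control and 21.1 and 21.6 with EDA-A2, so that these 2 genes of different clusters kept nearly the same proportion in all 4 libraries. Their mean ratios, 21.2 ± 0.0123 and 21.3 ± 0.380 (SD, n = 2 each), overlapped. The ratio of H19 to Igf2 was 336 and 346 in control and 386 and 332 with EDA-A2, which also overlapped. Igf2 values here carry the limit on ambiguous pairs given above. H19 to Mest was 481 and 383 in control and 525 and 475 with EDA-A2. Within the chromosome 12 cluster, 2 ratios were read, and both have Meg3 as the denominator, so they are not separate observations. Rian to Meg3 was 2.43 and 2.41 in control and 3.28 and 3.69 with EDA-A2, and Dlk1 to Meg3 was 1.59 and 2.63 in control and 3.26 and 3.97 with EDA-A2, both without overlap. The counts behind these 2 ratios were low, with 94 to 128 raw counts of Meg3 per library, and no test was made. Lack of overlap is common with so few libraries: among single genes tested, 22.2% lay lower and 22.8% higher without overlap. Meg3, Dlk1 and Rian themselves were not called (adjusted p 0.326, 0.230 and 0.683 in edgeR).

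**Figure D4:**
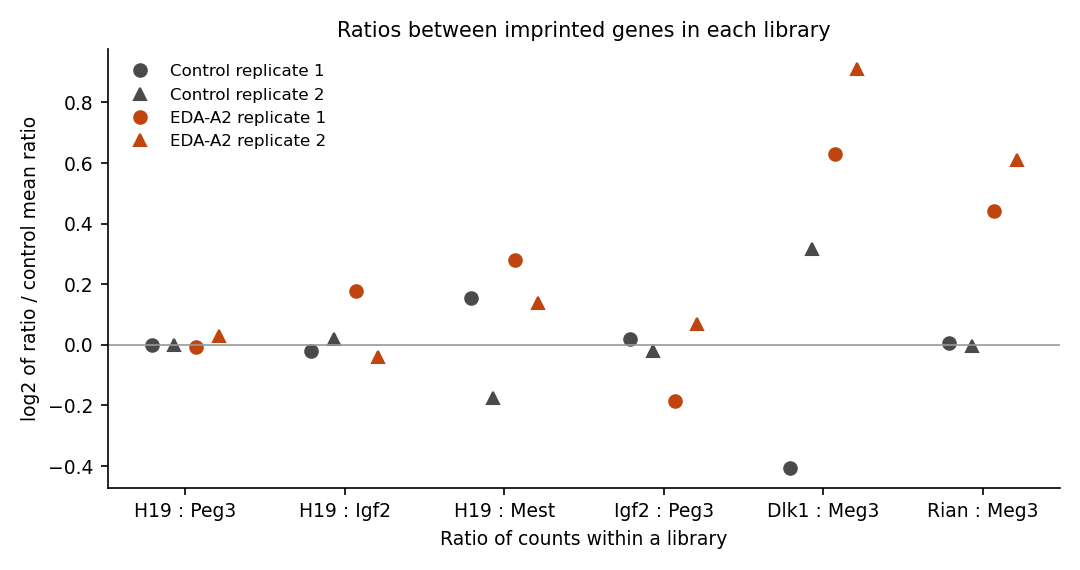
The log2 of each within-library count ratio relative to the mean ratio of the 2 control libraries (1 point per library, grey for Control, orange for EDA-A2). H19 : Peg3 stays near 0 in all 4 libraries, and the EDA-A2 points lie above both control points for Dlk1 : Meg3 and Rian : Meg3.

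Grouped by the allele they are expressed from, both sides were lower with EDA-A2. The 6 maternally expressed genes summed to 27880 ± 115 CPM, the counts scaled to a common library total, in control and 23943 ± 776 CPM with EDA-A2 (SD, n = 2 each), nearly all of it H19. Without H19 the other 5 summed to 58.7 ± 0.430 and 51.9 ± 2.11 CPM. The 4 paternally expressed genes summed to 1470 ± 4.66 and 1247 ± 48.8 CPM. Peg3 alone made up 1315 and 1120 CPM of these. The ratio of the maternally to the paternally expressed sum was 19.06 and 18.86 in control and 19.11 and 19.30 with EDA-A2. These did not overlap, but 19.06 and 19.11 lay closer together than the replicates of either condition. Without H19 the ratio was 0.0402 and 0.0397 in control and 0.0393 and 0.0440 with EDA-A2, which overlapped. No test was made on either ratio.

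The profile of H19 over the 4 libraries was compared with that of every gene with a mean of at least 1000 normalised counts, by the mean absolute difference of centred log2 values over 4 libraries. Of 5687 genes compared, the nearest were Ptpn21 (0.00658), Sema3e (0.00730), Rilpl1 (0.0117), Slc9a9 (0.0118) and then Peg3 (0.0120). Igf2 came 529th (0.0715) and Mest 3012th (0.137). Ptpn21 encodes a protein tyrosine phosphatase and Sema3e a secreted semaphorin, and neither lies on chromosome 7. Their log2 fold changes were -0.28 and -0.26, beside -0.27 for H19, and their adjusted p-values were 0.0306 and 0.0353 in edgeR. Likeness over 4 libraries is a description and carries no test.

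Tested genes within 200 kb of each of the 10 genes were read next, beside the 2.13% of all genes tested that fell. Around Peg3, 2 of 3 fell. Usp29, the ubiquitin protease gene that starts beside Peg3, had 2018 and 1809 normalised counts in control and 1225 and 1374 with EDA-A2 and fell by 0.56 (SE 0.08, adjusted p 0.00103 in edgeR). Zim1, a maternally expressed zinc finger gene, had 12749 and 11348 normalised counts in control and 9223 and 9372 with EDA-A2 and fell by 0.37 (SE 0.07, adjusted p 0.00672 in edgeR). Around Grb10, 1 of 4 fell, Cobl, which encodes an actin nucleator, by 0.61 (SE 0.08, adjusted p 0.000189 in edgeR). Around H19, 2 of 11 fell, Igf2 and the fast troponin I gene Tnni2, which is named for its position after its value was seen (log2 fold change -0.31, adjusted p 0.0484 in edgeR). These 5 were the neighbours called in edgeR around any of the 10 genes, and H19, as a neighbour of Igf2, passed only in DESeq2 of these 2 tests.

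Beyond these 10, 67 further genes listed as imprinted were examined, of which 46 were tested. Whether each is imprinted in muscle cells was not measured. In edgeR, 6 fell and 1 rose, beside 2.13% and 2.45% of all genes tested, and 3 of the 6 were the neighbours Usp29, Zim1 and Cobl already described. The median log2 fold change of the 46 was -0.03, against -0.28 for the 10 genes and -0.00 for all genes tested. With scaling by total counts these 3 medians were 0.02, -0.23 and 0.05. Peg10, a gene derived from a retrotransposon and paternally expressed, fell the most, from 5688 and 6434 normalised counts in control to 2996 and 3830 with EDA-A2, by 0.83 (SE 0.10, adjusted p 0.000121 in edgeR). Dhcr7, which encodes the last enzyme of cholesterol synthesis, fell by 0.41 (adjusted p 0.0190 in edgeR). Ampd3, which encodes an AMP deaminase, rose by 0.54 (adjusted p 0.000613 in edgeR), from 1568 and 1432 normalised counts to 2263 and 2113. Plagl1, a transcription factor known as a regulator of the network and named here for that role after its value was seen, had a log2 fold change of 0.04 (adjusted p 0.875 in edgeR).

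In the IGF axis, 18 of 20 listed genes were tested, 2 fell and 0 rose in edgeR, beside 2.13% and 2.45% of all genes tested. Their median was -0.10, and it was -0.047 without control replicate 2 and -0.044 with scaling by total counts. With that scaling the median of all genes tested was 0.05. DESeq2 gave 1 lower and 0 higher, beside 271 and 294 of all 15173 genes tested. In edgeR 7 of the 18 had an unadjusted p under 0.05, beside 2372 of all 15173 genes. Igfbp5, which encodes the main IGF binding protein of differentiating muscle cells, had 53220 and 59693 normalised counts in control and 44481 and 45470 with EDA-A2 and fell by 0.33 (SE 0.07, adjusted p 0.0192 in edgeR). Stc2, an inhibitor of the protease that frees IGF from its binding proteins, fell by 0.37 (SE 0.10, adjusted p 0.0441 in edgeR). Of 27 genes that maintain imprints or bind the control regions, 24 were tested and none passed in edgeR or DESeq2. Of the 24, 1 had an unadjusted p under 0.05 in each test, beside 2372 and 1570 of all 15173 genes. The median of the 24 was 0.00. The most abundant were Rad21, a cohesin subunit (log2 fold change -0.02, adjusted p 0.944 in edgeR), and Trim28, the corepressor that zinc finger proteins bring to imprints (-0.06, adjusted p 0.761 in edgeR).

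**Figure D5:**
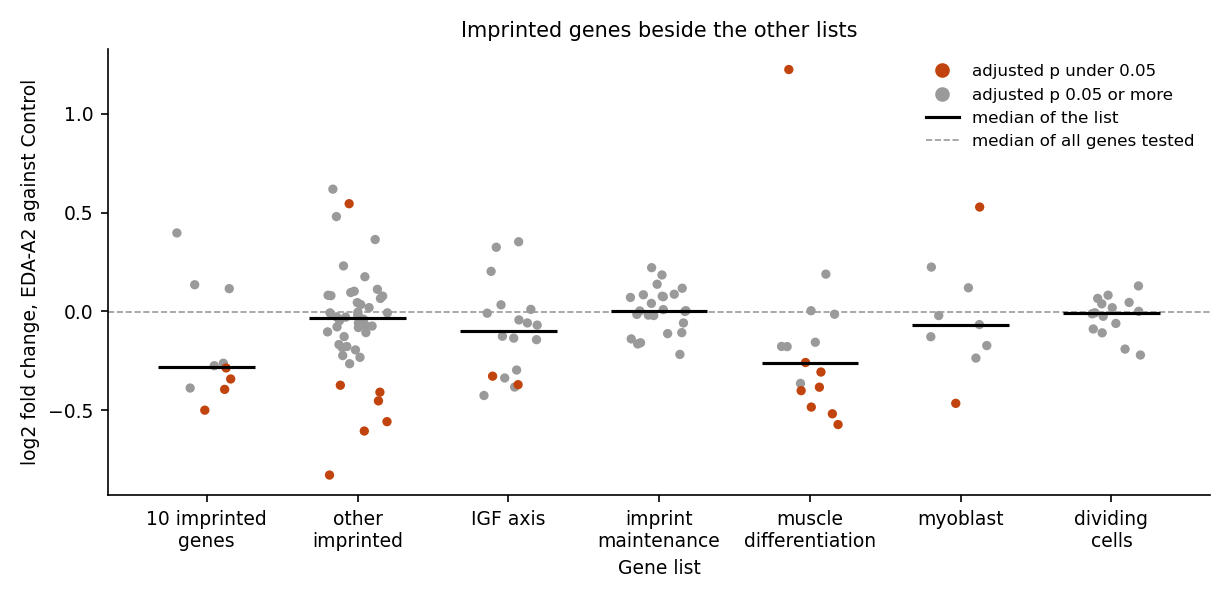
The log2 fold change of every tested gene in each list (1 point per gene, orange where the adjusted p was under 0.05), with a bar at the median of the list and a dashed line at the median of all genes tested. The medians are -0.28 for the 10 imprinted genes, -0.03 for other imprinted genes, -0.10 for the IGF axis, 0.00 for imprint maintenance and -0.26 for muscle differentiation.

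H19 and Igf2 are known to rise when myoblasts become myotubes, and the markers of that state were read beside them. Of 15 muscle differentiation genes tested, 7 fell and 1 rose in edgeR, beside 2.13% and 2.45% of all genes tested. The median of the 15 was -0.26, and it was -0.16 without control replicate 1. The 7 genes not called are named here after their values were seen. Log2 fold changes were -0.36 for Ckm, -0.18 for Myog and Mef2c, -0.16 for Tnnt3, -0.01 for Mymk, 0.00 for Cdkn1a and 0.19 for Rb1. Embryonic myosin Myh3 fell by 0.57 (adjusted p 0.000199 in edgeR), Acta1 by 0.52, Mylpf by 0.48, Tnnc2 by 0.40 and perinatal myosin Myh8 by 0.38, while the fusion peptide gene Mymx rose by 1.22. The 9 myotube markers summed to 30368 to 30916 CPM in control and 23744 to 24169 CPM with EDA-A2, and 5 of the 9 fell. Of 9 myoblast genes tested, Cdh15 fell by 0.47 and Vcam1 rose by 0.53, and the median of -0.07 ran from -0.17 without control replicate 1 to -0.020 without EDA-A2 replicate 2. The 15 dividing cell genes gave no call in edgeR or DESeq2 and 0 unadjusted p-values under 0.05 in either. Among all 15173 genes tested, 2372 had such a p-value in edgeR and 1570 in DESeq2. The most abundant of the 15 were Top2a with a log2 fold change of 0.02 and Mki67 with 0.05. The part of the myotube state in the values of the imprinted genes was not tested.

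Markers of other cells gave little that moved with treatment. Fibroblast markers summed to 1628 to 1725 CPM in control and 1639 to 1642 CPM with EDA-A2, with 0 of 4 tested called in edgeR and Lum and Thy1 at 0 in every library. Macrophage markers summed to 8.0 to 9.16 and 9.35 to 12.9 CPM, and endothelial, Schwann cell and adipocyte markers to at most 2.97 CPM in any library. Smooth muscle and pericyte markers summed to 105 to 111 and 96.0 to 105 CPM, with Pdgfrb lower (adjusted p 0.0125 in edgeR), a gene named after its value was seen. The dividing cell markers summed to 674 to 815 and 765 to 790 CPM.

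How firmly the 4 calls stand depends on the libraries. Without control replicate 1 or control replicate 2, edgeR called no gene of the whole table (2179 and 2448 had an unadjusted p under 0.05), and so none of the 10. Without either EDA-A2 library fewer of the 4 passed, as did fewer of all genes. Without EDA-A2 replicate 1 the log2 fold changes were -0.45 for Mest, -0.26 for Igf2, -0.33 for Peg3 and -0.34 for Grb10. Without EDA-A2 replicate 2 they were -0.55, -0.43, -0.25 and -0.45. The log2 fold changes kept their sign in each of these fits for all genes but Mirg. Scaling by total counts left 2 calls, Igf2 (adjusted p 0.0485 in edgeR) and Mest (0.0194), and shifted the split of all calls to 485 higher and 194 lower from 371 and 323.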

How the data were processed

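Polyadenylated RNA of 2 Control and 2 EDA-A2 libraries was sequenced from stranded libraries as read pairs. The authors checked the reads with FastQC 0.11.9 and MultiQC 1.12, trimmed them with Trim Galore 0.6.5, mapped them to GRCm39 with STAR 2.7.3a and counted them per gene with HTSeq 0.11.1 (versions from the submitters' processing notes), and the deposited values are raw counts per Ensembl gene. The annotation release and the strand option are not given in the sources used here. GENCODE vM39 gave symbols for 52610 of the 53647 genes, 10 of 10 listed genes included. Pairs that the counting left unassigned (12.2% to 13.0% of a library) stayed out of totals and tests.

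Genes were tested with edgeR 4.0.16 (R 4.3.3) after TMM scaling and filterByExpr (minimum count 10, minimum total 15), by glmQLFTest with condition as the only term, Benjamini-Hochberg adjustment over all genes tested and a threshold of 0.05. Normalised counts are counts scaled by TMM library size. FPKM used the union of exons. A count of 0 allows up to 3 counts, or 0.101 to 0.102 CPM. The steps were tested on simulated counts. Alternatives were other scalings, H19 left out, other filters, the DESeq2 1.42.0 Wald test, a replicate block and each library left out in turn. Named are the 10 genes, the called genes of each list (at most 6 by p-value, or the 2 most abundant where fewer were called), the 5 genes most like H19 and genes that overlap the 10. The genes, lists, motifs and tests were chosen with earlier results of these data known. Expressed alleles were assigned from general knowledge, not from the data.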

Additional observations from a re-analysis of the deposited data

How the results depend on the processing

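The signs of the log2 fold changes of the 10 genes held under every scaling, filter and test tried. Without any filter on low counts (25545 genes tested), calls dropped to 86 of all genes and 0 of the 10 genes. At an unadjusted p under 0.05 in edgeR lay 7 of the 10, beside 2264 of all genes. With the filter, DESeq2 gave 4 calls among the 10. Without it, edgeR called 0 of the other imprinted genes, 0 of the IGF axis, 3 of muscle differentiation and 0 of the myoblast genes. Scaling by total counts left 2 of the 10 genes called, with Peg3 at an adjusted p of 0.0648 and Grb10 at 0.101 in edgeR, and 1 gene of the IGF axis, which was higher. The IGF axis also gave 1 call with upper quartile factors and 1 in DESeq2. H19 passed with upper quartile factors (adjusted p 0.0490 in edgeR) and ranged from 0.00264 (DESeq2) to 0.122 (replicate block) over the alternatives with all 4 libraries. Grb10 ranged from 0.0198 to 0.306 over these alternatives, and was lost with upper quartile factors (0.0572), with at least 10 counts in every library (0.0541) and in DESeq2 (0.111).

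Leaving out 1 library in turn left a condition with a lone library, which was assumed to vary like the others. Calls then ranged from 0 to 402 for all genes, from 0 to 2 for the 10 genes, from 0 to 6 for other imprinted genes, from 0 to 1 for the IGF axis, from 0 to 6 for muscle differentiation and from 0 to 2 for myoblast genes, each 0 without control replicate 1 or 2 in edgeR. Mirg ranged from -0.089 to 0.36 and reversed without control replicate 1. The summed level of the maternally expressed genes changed by -0.25 to -0.19 on the log2 scale (-0.18 without H19), and that of the paternally expressed genes by -0.28 to -0.20. The sign of the change in the ratio of H19 to Igf2, 17.7 in the mean, turned to -9.19 without EDA-A2 replicate 1. Per length of the longest transcript the mean level was 9857 FPKM for H19 and 15.7 FPKM for Igf2, and per unshared exon bases, an alternative added after seeing the data, it was 9354 and 28.9 FPKM. The causes of these changes were not tested.

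With the replicate number as a block, 1066 of all genes and 6 of the IGF axis were called, and 4 of the 10 genes with the same direction, H19 not among them. The labels do not say what a shared number means, and deviations of same-numbered libraries from their condition means correlated at 0.0566 over 15173 genes. With 2 pairs, the libraries were treated as unpaired. Depth limits Mirg, with 10 to 14 counts per library. The standard errors of Mirg, Meg3, Dlk1 and Rian were 0.12 to 0.45, beside a median of 0.10 over all genes tested.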
